A study of Mus musculus with 12 samples.

Results

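Complement cascade genes encode the plasma proteins, cell surface regulators and receptors through which complement marks and lyses targets. Of 37 such genes, taken by their symbols in the platform annotation, 33 had a probe set annotated to that gene alone, among 12393 genes so measured. Each gene was read by 1 probe set, the one with the highest mean log2 signal over the 12 arrays. C3, Cfd and Colec11 had no probe set under their names and the probe set of C4b was annotated to several genes, so these 4 were not analysed here. The 33 measured genes fell into 5 that start the classical pathway (C1qa, C1qb, C1qc, C1ra, C1s1), the C1q-binding protein gene C1qbp, 5 of the lectin pathway (Mbl1, Mbl2, Fcna, Masp1, Masp2), 2 core components (C2 and Hc), 2 of the alternative pathway (Cfb, Cfp), 5 of the terminal pathway (C6, C8a, C8b, C8g, C9), 4 regulators in plasma (C4bp, Cfi, Clu, Vtn), 3 regulators on membranes (Cd55, Cd59a, Cd46) and 6 receptors (C3ar1, C5ar1, Cr2, Itgam, Itgb2, Vsig4).

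The samples were whole livers of male mice, 6 weeks old, that carried an inducible human alpha1-antitrypsin transgene restricted to hepatocytes. Alpha1-antitrypsin is a protease inhibitor that the liver secretes into plasma, and its Z mutant is retained in the endoplasmic reticulum. Z on mice (labelled Z4) expressed the Z mutant and received no doxycycline, and Z off mice (Z1) carried the same transgene kept silent by doxycycline at 40 µg/mL in the drinking water from conception. M on mice (M4) expressed the wild-type M form without doxycycline, and M off mice (M1) carried it silenced in the same way. Every group held 3 arrays, each a biological replicate per the labels, and no group lacked a transgene. Expression and the absence of doxycycline cannot be told apart in this design, nor can the Z form and the mouse line that carried it.

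Complement is a chain of plasma proteases and binding proteins started by antibody (classical pathway), by sugar-binding lectins (lectin pathway) or on any unprotected surface (alternative pathway). The starts converge on cleavage of components C3 and C5, after which the terminal components assemble a pore in the target membrane. Hepatocytes make most of the plasma components, whereas C1q is made mainly by macrophages, which in liver include the Kupffer cells. Several components are also acute phase proteins, whose hepatic synthesis is raised by inflammatory cytokines.

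All 12 arrays had been scaled to the same trimmed mean of 150.07 to 150.08 linear signal units, and their medians lay between 38.8 and 47.2 units. Pearson correlations between arrays were 0.924 to 0.976 over the brighter 11313 probe sets. The Z off arrays stood apart on the first principal component, which held 18.2% of the variance (21.5 to 27.8, with no other array above 12.4). The 3′ to 5′ signal ratio of beta-actin, a sign of RNA quality, was 2.44 to 5.16 on Z on, 2.18 to 2.53 on Z off, 3.09 to 4.38 on M on and 2.72 to 3.89 on M off arrays. Hepatocyte markers summed to 93081 to 116314.1 units in Z on, 91842 to 112183.7 in Z off, 88183.2 to 135028.5 in M on and 91189.1 to 127131.7 in M off. Of 3 erythroid markers, Alas2 alone stood apart, at 136.5 to 210.7 units in Z on, 1118.8 to 1456.1 in Z off, 230.8 to 253.9 in M on and 254.2 to 306.6 in M off, while Hba-a1 and Slc4a1 were dim on all arrays (0.7 to 40.7 units). The part of Alas2 in the Z off values below was not tested. On Z on replicate 3 acute phase genes stood high: Saa1 read 6737.2 units there against 532 and 441.9 on the other Z on arrays, Saa2 4508.4 against 100.4 and 91.5, and Lcn2 761.2 against 13.7 and 4.1. The number of arrays limits the precision of each value below.

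Complement genes with clear signals varied little between arrays. On all 12 arrays 23 of the 33 genes read at least 100 units. In 11 of these 23 (47.8%) the brightest array was at most 1.5 times the dimmest (C1qbp, C1ra, C1s1, C2, C4bp, C8g, Cfb, Cfi, Masp1, Clu and Vtn), against 26.1% of the 3688 genes with every array at 100 or more. The median ratio of brightest to dimmest array was 1.54 over the 23 complement genes and 1.67 over those 3688 genes. The 2 sets were not matched for signal level, and the part of signal level in these ratios was not tested. Only Hc (4.07), C6 (3.11) and Mbl2 (2.15) passed a ratio of 2 among the 23. At the other end, 7 genes had at least 1 array under 16 units (C3ar1, C5ar1, Cfp, Cd55, Cr2, Itgam and Itgb2), where a log2 difference is less certain.

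**Figure D1:**
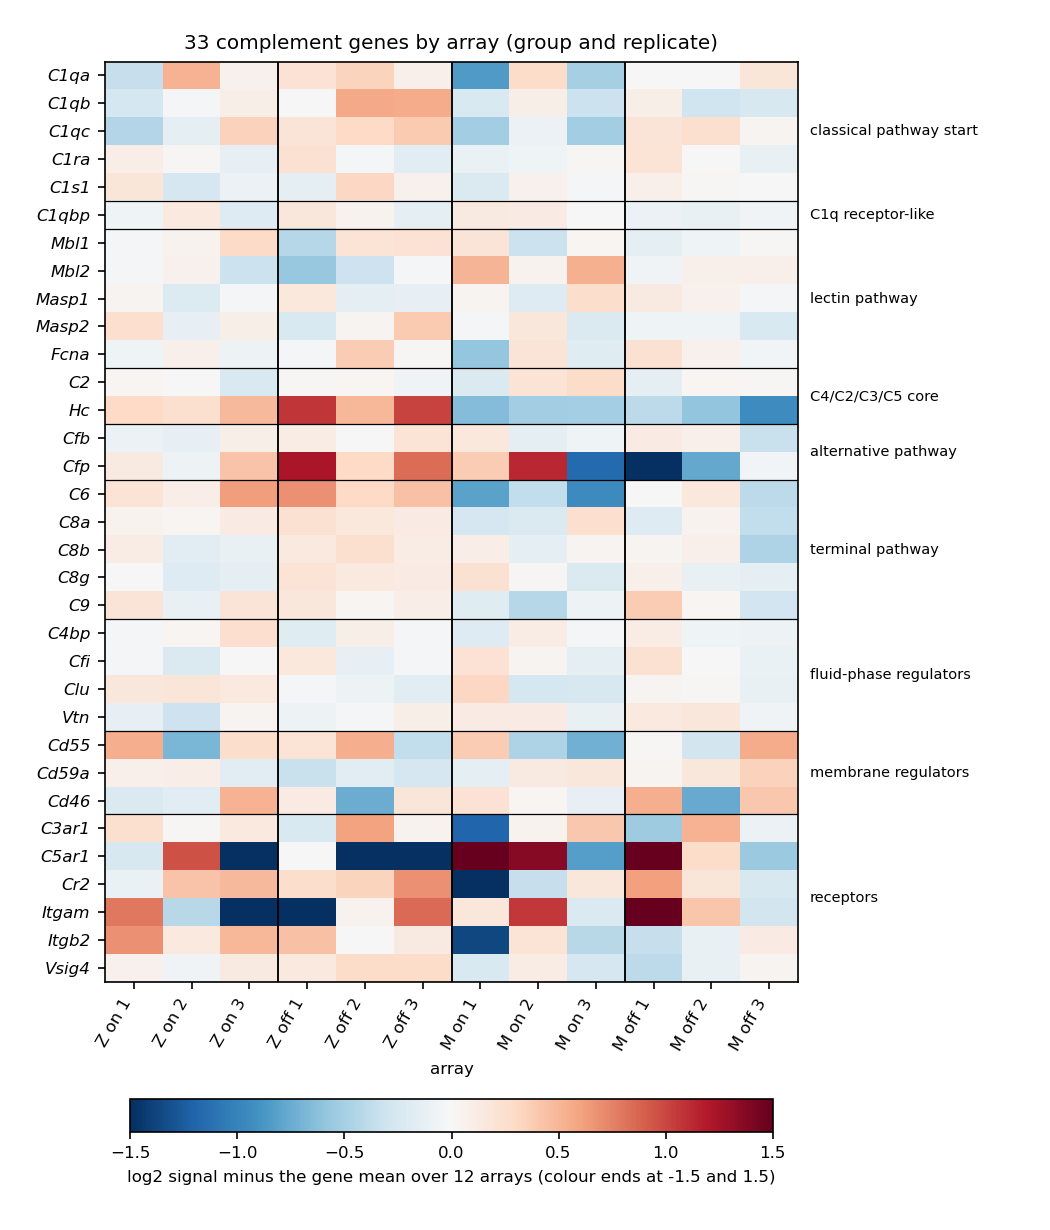
Log2 signal of 33 complement genes (rows, grouped by role) on 12 arrays (columns, in the order Z on, Z off, M on, M off), each minus the mean of its gene over the 12 arrays, with colours ending at -1.5 and 1.5. Hc is the row in which the 6 Z arrays lie above the 6 M arrays, and the widest colour changes are in dim genes such as Cfp, C5ar1 and Itgam.

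The comparison of the Z line with the M line, averaged over the on and off states, gave the single complement gene that passed the test. Hc, which encodes complement component C5, read 2188.4, 2091.7 and 2473.1 units in Z on and 3734.8, 2506.6 and 3570.1 in Z off, against 1131.1, 1234.3 and 1243 in M on and 1349.4, 1176.7 and 918.8 in M off. All 6 Z arrays lay above all 6 M arrays, and the 3 Z off arrays lay above the 3 Z on arrays. Hc was 2.30-fold higher in the Z line, a log2 difference of 1.20 with a standard error of 0.15 and a 95% confidence interval of 0.87 to 1.54 (limma, adjusted p = 0.0223). It was 1 of 20 calls among 22626 probe sets, a background of 0.0884%, and 0.38% of probe sets had all Z arrays above all M arrays, with 0.544% all below. Its call was sensitive to the number of arrays: with 1 array left out the log2 difference was 1.13 to 1.29, but the adjusted p passed only without Z off replicate 2 (0.0242) and lay at 0.0525 to 0.075 without any one of the other 11 arrays, and at 0.0928 with replicate number as a block.

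The Hc difference was present in both states on the log2 scale. With both transgenes silent, Hc averaged 3270.5 ± 667 units in Z off and 1148 ± 217 units in M off (SD, n = 3 each), a 2.84-fold difference (log2 1.51, standard error 0.21, interval 1.03 to 1.98, limma adjusted p = 0.0517). With both expressed, it averaged 2251 ± 198 units in Z on and 1203 ± 62.3 units in M on (log2 0.90, standard error 0.21, interval 0.43 to 1.38, limma adjusted p = 0.427). Neither single-state difference passed at 0.05 over 22626 probe sets. The adjusted p of Z off against M off passed under 8 alternative settings, listed in the closing section.

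The 250 bases before the RefSeq start of Hc and of C6 are shown because these genes had the smallest adjusted p among the complement genes for the Z line against the M line. Both are read 5′ to 3′ on the strand of the gene (GRCm38.p6), at chr2:35061413-35061662 on the minus strand for Hc and chr15:4726960-4727209 on the plus strand for C6. Capitals mark a match to GTTAAT, the core of the site bound by the hepatocyte factor HNF1, here on the opposite strand.
Hc: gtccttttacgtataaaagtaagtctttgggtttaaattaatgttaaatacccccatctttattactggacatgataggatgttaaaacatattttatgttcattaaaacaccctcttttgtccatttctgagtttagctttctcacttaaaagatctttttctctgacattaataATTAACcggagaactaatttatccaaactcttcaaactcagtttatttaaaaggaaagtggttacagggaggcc
C6: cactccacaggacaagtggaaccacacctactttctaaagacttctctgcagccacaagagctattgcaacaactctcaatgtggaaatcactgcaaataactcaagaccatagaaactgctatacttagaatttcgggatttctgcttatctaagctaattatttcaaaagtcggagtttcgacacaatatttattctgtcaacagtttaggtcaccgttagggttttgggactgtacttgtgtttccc

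A search of both strands for GTTAAT, for the STAT site TTCNNNGAA and for the C/EBP site TTGCNNAA found 1 match in the Hc window, whose first base lies 74 bases before the start, and none of the 3 motifs in the C6 window. The motifs were chosen after the values of the genes had been seen. RefSeq promoter entries matched 26 of the 33 genes, and GTTAAT was in 8 of them (30.8%), against 7.5% of 27025 genes with an entry and 6.4% of all 32851 windows of this length. STAT and C/EBP matches were each in 2 of the 26 (7.7%), against 8.1% and 10.8% of genes. The 8 GTTAAT stretches, 30 bases each with the motif in capitals and read on the strand of the motif, are shown to set the Hc match beside those of the other genes. Of the other carriers, C1ra, C4bp and Vtn were among the 11 steadiest genes. C8a, C8b and Cfp lay wholly higher in Z off than in M off, as 8.36% of all probe sets did, and Cr2 was dim. The part of the motif in any of these values was not tested.
Hc (chr2:35061469-35061498, plus strand): attagttctccgGTTAATtattaatgtcag
C1ra (chr6:124512449-124512478, plus strand): ctcccagaaaatGTTAATccgatttagaga
C4bp (chr1:130661665-130661694, minus strand): ctgctctagtctGTTAATcattcaccggga
C8a (chr4:104876488-104876517, minus strand): ccttggttactaGTTAATcacattgaatgg
C8b (chr4:104766099-104766128, minus strand): cagggttagaggGTTAATacaggtaaagta
Cfp (chrX:20931556-20931585, minus strand): ggagacttcacaGTTAATgaggccataccc
Vtn (chr11:78498996-78499025, minus strand): tgagccagtcccGTTAATctccctgagcct
Cr2 (chr1:195176909-195176938, minus strand): gggaacgagaaaGTTAATgtacttggctgc

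The 10 nearest annotated genes with a probe set around Hc, 5 on each side on chromosome 2, had log2 differences between the Z line and the M line of -0.55 (Traf1, dim) to 0.35 (Fbxw2, adjusted p = 0.537). None was called and all overlapped between the lines. Around C6, on chromosome 15, the range was -0.22 to 0.32, again with no call. C9, another terminal component gene, lies 5 genes beyond C6 in that order, at 0.19. Hc and C6 had been picked for their small p between the same lines, so a smaller difference in each neighbour was likely in advance. On 1 side of Hc, Fbxw2 (0.35, limma unadjusted p = 0.0438), Psmd5 (0.22), Cutal (0.26) and Phf19 (0.12) were higher in the Z line, and Traf1 lower. On the other side Stom was higher (0.05), and Cntrl, Rab14, Gsn and Dab2ip were lower. The part of the chromosome region in the Hc difference was not tested.

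C6, which encodes the first of the components that join activated C5, came next after Hc. It read 1410.2, 1319.7 and 1890.7 units in Z on and 1970.6, 1514.1 and 1664 in Z off, against 703.3, 950.6 and 633.9 in M on and 1230.7, 1371.9 and 934.2 in M off. Z on lay wholly above M on and Z off wholly above M off, and only Z on replicate 2 lay below the brightest M off array. The C6 log2 difference between lines was 0.78 with a standard error of 0.17 (interval 0.41 to 1.16), which did not pass (limma adjusted p = 0.195). By state it was 1.02 for Z on against M on (2.02-fold, interval 0.48 to 1.55, adjusted p = 0.427) and 0.55 for Z off against M off (interval 0.02 to 1.09, adjusted p = 0.636). M on was the group with the lowest C6 signals.

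Terminal complement activity is known to be higher in male than in female mice, and a list of male-biased liver genes was set beside Hc and C6. Of its 11 genes 8 were measured. In the Z line against the M line 7 were higher and 1 lower, with a median log2 difference of 0.89 against 0.01 over all genes. Serpina12, a secreted serpin, was called (log2 1.59, adjusted p = 0.0466), and Cyp7b1, an oxysterol hydroxylase, had all 6 Z arrays above all 6 M arrays without passing (1.39, adjusted p = 0.0801). Their summed signal was 15270.5 to 17609.8 units in Z on, 21477.8 to 21799.3 in Z off, 9990.9 to 12539.8 in M on and 12950.3 to 15338.7 in M off. Z on lay below Z off and M on below M off, as the C6 means did. The Hc means did so only in the Z line, with 1202.8 units in M on and 1148.3 in M off. The part of these genes' shift in the Hc and C6 differences was not tested.

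**Figure D2:**
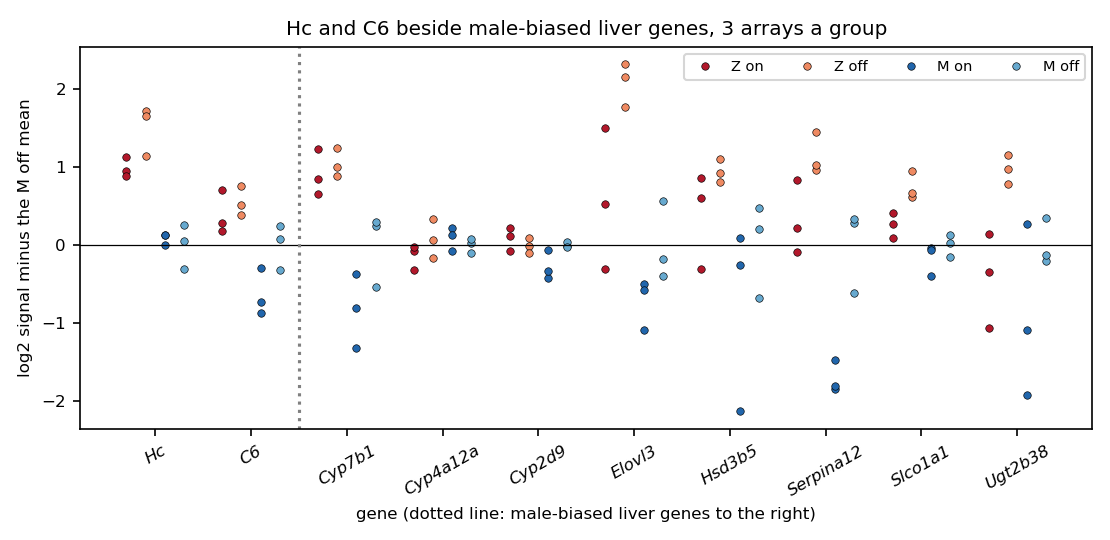
Log2 signal of Hc, C6 and 8 male-biased liver genes on each array (3 points a group, in the order Z on, Z off, M on, M off), minus the mean of the M off arrays of that gene, which is the line at 0. Both Z groups of Hc lie above 0 on all 6 arrays, and most male-biased genes also lie higher in the Z groups than in the M groups.

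Over all 33 complement genes, whether made by hepatocytes or not, the median difference between lines was small. Averaged over states, 23 of the 33 complement genes were higher in Z and 10 lower, with a median log2 difference of 0.10 against 0.01 over all 12393 genes. At an unadjusted p under 0.05 stood 4 genes, Hc, C6 and Itgb2 higher and Mbl2 lower, where 9.09% of all probe sets did. All 5 terminal pathway genes were on the higher side, from 0.05 for C8g to 0.78 for C6. C9, the component that polymerises into the membrane pore, read 10469.5, 8469.4 and 10536.5 units in Z on, 10317.1, 9372.5 and 9805.7 in Z off, 8078.3, 6852.7 and 8679.6 in M on, and 12000.6, 9334.9 and 7535.2 in M off. Its 4 groups overlapped, with the widest spread in M off (Z minus M 0.19, standard error 0.15, adjusted p = 0.75).

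With both transgenes off, 7 of the 33 genes had all Z arrays above all M arrays (Hc, C6, C8a, C8b, C8g, Cfp and Vsig4) and Cd59a had them all below, against 8.36% and 6.76% of all probe sets. None of the 33 was called, where 16 probe sets were (0.0707%), and 5 had an unadjusted p under 0.05 by limma, against 7.73%. C8g, the lipocalin-like subunit of component C8, read 5976.5, 5200.9 and 5384.4 units in Z on, 6833.4, 6548.2 and 6473.3 in Z off, 6927.3, 6004.9 and 5121.4 in M on, and 6250.2, 5482.9 and 5404 in M off. Z off was above Z on and above M off on every array, yet the difference from M off was only 0.22 with a standard error of 0.17 (adjusted p = 0.813). C8a, which encodes a partner subunit, averaged 3612 ± 137 units in Z off and 2883 ± 424 units in M off. C8b, for the remaining subunit, averaged 2322 ± 117 units in Z off and 1939 ± 378 units in M off. All 3 subunit genes lay apart between the groups with log2 differences of only 0.22 to 0.34.

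Cd59a encodes a membrane protein that blocks assembly of the terminal pore. It read 537.4, 546.5 and 455.8 units in Z on, 402.9, 457.7 and 428.4 in Z off, 461.8, 560.7 and 571.2 in M on, and 525.4, 573.8 and 649.9 in M off. Z off had the lowest mean and its arrays lay below every M off array (log2 -0.44, standard error 0.17, adjusted p = 0.6). A second Cd59a probe set ran the other way between lines, at 0.45 where the one used was at -0.24.

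The other membrane regulators among the 33 genes, Cd55 and Cd46, were dim. Cd55, which speeds the decay of convertases, read 27.1, 11.6 and 22.4 units in Z on, 21.5, 27.2 and 14.4 in Z off, 24.3, 13.5 and 11.3 in M on, and 18.8, 15.4 and 27.5 in M off, with all groups overlapping. Cd46 lay between 24.2 and 59.4 units. Among the regulators in plasma, C4bp, Cfi, Clu and Vtn differed between lines by -0.14 to 0.08 on the log2 scale. C4bp and Cfi, which help inactivate cleaved C4 and C3, kept within 2349 to 3208.3 and 5773.3 to 7913 units over all 12 arrays. C2, the protease of the classical convertase, lay at 407 to 579 units, and C1ra and C1s1, the proteases bound to C1q, at 967.8 to 1265.4 and 962 to 1416 units.

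The lectin pathway held the largest shift below 0 between lines among the 23 genes with every array at 100 or more. Mbl2, a mannose-binding lectin, read 3272.5, 3503.6 and 2682 units in Z on, 2252.9, 2699.2 and 3312.7 in Z off, 4756.8, 3466.2 and 4843.9 in M on, and 3228.4, 3543.2 and 3526.7 in M off. The brightest arrays were M on replicates 1 and 3, and the Z and M arrays overlapped in both states. The log2 difference, Z minus M, was -0.40 with a standard error of 0.15 (interval -0.73 to -0.06, adjusted p = 0.462). Mbl1, the other mannose-binding lectin, Fcna, the ficolin of macrophages, and the proteases Masp1 and Masp2 lay between -0.10 and 0.14 (adjusted p of at least 0.462 for all 5 lectin pathway genes). Fcna read 138.3 to 270.9 units over the 12 arrays. A second Masp2 probe set, which may read another transcript form, was at -0.46 (adjusted p = 0.357) against 0.14 for the one used.

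The alternative pathway genes differed in how well they were measured. Cfb, the protease of the alternative convertase and an acute phase gene, read 2655, 2595.2 and 2992.3 units in Z on, 3053.5, 2806.2 and 3243.1 in Z off, 3142.7, 2568.3 and 2696.9 in M on, and 3078.9, 2977.8 and 2239.8 in M off. Its groups overlapped in every comparison, and its log2 differences ran only from -0.14 to 0.15 over the 4 comparisons between pairs of groups. Cfp, properdin, which stabilises that convertase and is made mainly by white blood cells, read 41, 35.4 and 50.1 units in Z on, 87.1, 45.8 and 66.6 in Z off, 48.5, 81.7 and 16.6 in M on, and 7.2, 22 and 36.4 in M off. Z off lay above M off (log2 1.84, standard error 0.66, adjusted p = 0.578), with M off replicate 1 far down the scale.

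**Figure D3:**
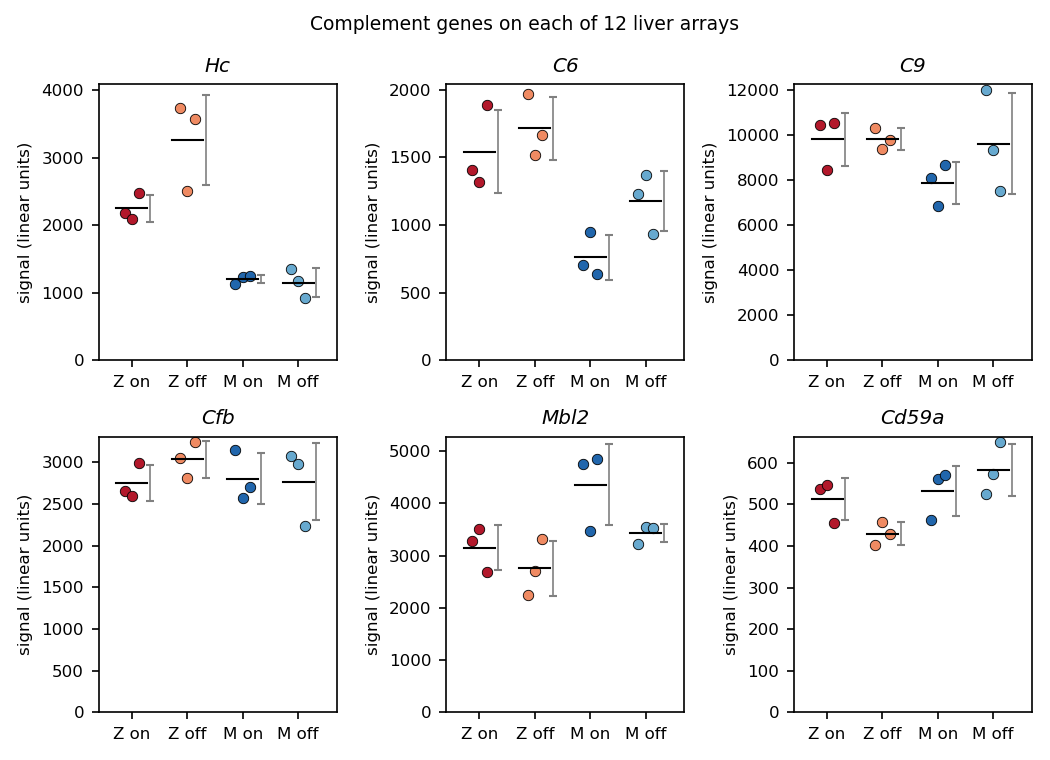
Linear signal of Hc, C6, C9, Cfb, Mbl2 and Cd59a on each array (points), with the group mean (black line) and SD (grey bar, n = 3), in the order Z on, Z off, M on, M off. Hc is the gene in which both Z groups stand clear of both M groups, and Cfb and C9 overlap throughout.

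C1q and the receptors are read mostly from cells other than hepatocytes. In whole liver RNA, fewer cells of a type and less RNA per cell cannot be told apart. C1qa read 125.3, 229.3 and 166.3 units in Z on, 184.6, 200.6 and 168.3 in Z off, 88.4, 193 and 112.7 in M on, and 159.6, 159.8 and 180.5 in M off. C1qb read 127.8, 150.6 and 163.1 units in Z on, 153.6, 228.4 and 226.4 in Z off, 131.3, 163.3 and 123.5 in M on, and 163.8, 125.3 and 130.7 in M off. C1qc read 85.3, 104.7 and 147.2 units in Z on, 133, 143.1 and 152 in Z off, 81, 109.5 and 80.6 in M on, and 133, 137.1 and 119.3 in M off. The 3 genes encode the chains of 1 protein, and M on replicates 1 and 3 were among the lower arrays for each of them, while only C1qc in M on lay wholly below its off group.

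Between lines the C1q genes did not pass in any comparison. C1qb was 1.44-fold higher in Z off than in M off (log2 0.52, standard error 0.22, adjusted p = 0.629), with overlapping arrays. Its 2 other probe sets gave 0.07 and -0.12 there. The 9 measured Kupffer cell and macrophage markers summed to 1949.9 to 2203.7 units in Z on, 1925.5 to 2163 in Z off, 1613.1 to 2205.4 in M on and 1628.3 to 1972.1 in M off, with 6 of 9 higher in the Z line than in the M line. Clec4f, a defining Kupffer cell marker, was present at 231.3 to 353.3 units on all arrays. Marco at 2.2 to 81.2 units and Cd163 at 17.3 to 61.3 were dim, while Csf1r read 519.3 to 766.6 units. Between lines, 2 markers were higher in Z and 2 lower at an unadjusted p under 0.05 by limma, against 9.09% of probe sets. Only Ctss had all Z arrays (263.5 to 360.2 units) above all M arrays (132.9 to 209), against 0.38% of probe sets. Cd5l read 238.7 to 339.2 units in the Z line and 325.2 to 552.9 in the M line. The part of these cells in the C1q values was not tested.

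Vsig4, the complement receptor of Kupffer cells, read 225.2, 206.9 and 235.6 units in Z on, 238.4, 261.2 and 260.7 in Z off, 183.7, 232.9 and 180.4 in M on, and 163.9, 199.6 and 221 in M off. Z off lay above both Z on and M off on every array (0.39 against M off, standard error 0.18, adjusted p = 0.658). Itgb2, the beta chain shared by the leukocyte integrins that act as complement receptors, read 63.1, 43.5 and 55.3 units in Z on, 53.1, 39.3 and 43 in Z off, 15.2, 45.4 and 29.4 in M on, and 31, 36.3 and 42.8 in M off. Its Z on and M on arrays overlapped by 1 array, M on replicate 2 (log2 0.97, standard error 0.36, adjusted p = 0.636).

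The remaining receptors gave signals near the bottom of the scale. Cr2, the receptor of B cells for cleaved C3, read 17.7, 25.6 and 26.7 units in Z on, 22.8, 23.9 and 30.5 in Z off, 3.4, 15 and 21.3 in M on, and 29.1, 21.6 and 16.1 in M off. The single low value of M on replicate 1 is the lowest of the 12. C3ar1 and C5ar1, the receptors for the peptides released from C3 and C5, lay at 14 to 48.4 and 1.3 to 34.3 units, and Itgam, an integrin alpha chain, at 1.5 to 33.7 units. A second C3ar1 probe set, also dim, gave 38.6, 25 and 32.5 units in Z on, 17.7, 54.4 and 17.2 in Z off, 3.6, 6.7 and 13.4 in M on, and 8.8, 30.7 and 10.8 in M off. Its Z on arrays lay above its M on arrays (log2 2.20, standard error 0.64, limma adjusted p = 0.512), where the probe set used had 0.37. B cell markers summed to 121.6 to 199 units in Z on, 111.2 to 140.6 in Z off, 98.6 to 149.1 in M on and 94.1 to 140.8 in M off, with the B cell gene Ms4a1 at 8.2 to 39.1 units. Neutrophil markers summed to 144.1 to 205.6 units in Z on, 102.2 to 237.2 in Z off, 118.9 to 180.9 in M on and 126.2 to 216.2 in M off, with S100a8 at 3.6 to 40.4 units. Their part in the receptor values was not tested.

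**Figure D4:**
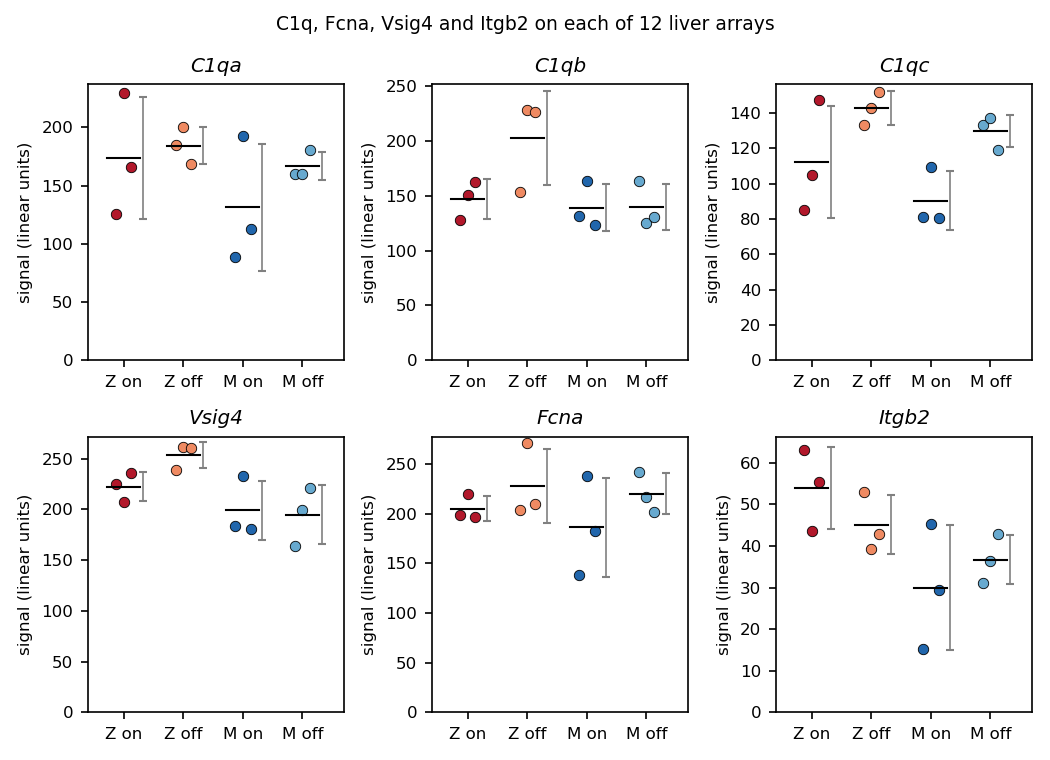
Linear signal of C1qa, C1qb, C1qc, Vsig4, Fcna and Itgb2 on each array (points), with the group mean (black line) and SD (grey bar, n = 3), in the order Z on, Z off, M on, M off. Z off holds the highest mean of C1qa, C1qb, C1qc, Vsig4 and Fcna, and Itgb2 is dimmest in M on.

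Within the Z line, the question was how these genes respond to the mutant protein. No complement gene passed between Z on and Z off, while 3 of 22626 probe sets did (0.0133%). At an unadjusted p under 0.05 by limma stood 1 complement gene, Hc, against 6.29% of probe sets. Of the 33 genes 9 were higher and 24 lower in Z on, with a median log2 difference of -0.09 against -0.03 over all genes. All 5 classical pathway genes and all 5 terminal pathway genes were on the lower side, with medians of -0.13 and -0.17. Over all genes 6543 of 12393 were lower. None of these classical and terminal pathway genes had an unadjusted p under 0.05 by limma, and C9 (-0.007) and C1ra (-0.025) barely differed.

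Hc had the smallest p of the 33 in this comparison. Each Z on array lay below each Z off array (log2 -0.52, standard error 0.21, interval -0.996 to -0.045, limma adjusted p = 0.756). Non-overlapping groups were found for 4 genes, Hc, C8g and Vsig4 lower and Clu higher, against 6.61% of probe sets lower and 5.22% higher. Clu, a chaperone-like plasma protein that blocks the terminal complex, read 8529.2, 8608.5 and 8343.6 units in Z on, 7441.1, 7204.1 and 6770.6 in Z off, 9362.4, 6288.3 and 6412.5 in M on, and 7792, 7680 and 7024.4 in M off. Z on was the tightest group and lay above Z off on every array, although M on spanned a wider range than both (log2 0.25, standard error 0.18, adjusted p = 0.871). Its 4 probe sets gave 0.03 to 0.25.

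The C1q genes gave unlike values in this comparison. C1qb differed by -0.45 with a standard error of 0.22 (adjusted p = 0.8) and C1qc by -0.38 (adjusted p = 0.851), while C1qa differed by -0.13 (adjusted p = 0.968). The 2 other C1qb probe sets gave -0.06 and 0.64, so the direction for C1qb depended on the probe set. The Kupffer cell and macrophage markers gave a median of 0.05 between the same groups, with 5 of 9 higher in Z on. The Z off arrays enter both this comparison and that with M off.

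In M on against M off, the same question for the wild-type protein, no complement gene passed and neither did any of 22626 probe sets (0%, with a smallest adjusted p of 0.0724). By limma 2 complement genes had an unadjusted p under 0.05, against 5.18% of probe sets. They were C6 at -0.63 (standard error 0.24, interval -1.17 to -0.10, adjusted p = 0.894) and C1qc at -0.54 (standard error 0.23, adjusted p = 0.942). C1qc in M on lay wholly below M off and C1qbp wholly above, where 5.32% of probe sets were lower and 5.23% higher in that way. C1qbp, a mitochondrial protein that can bind C1q, averaged 3601 ± 160 units in M on and 3204 ± 63.5 units in M off. A second C1qbp probe set overlapped between these groups, with a log2 difference of 0.10 against 0.17 for the one used. Over the 33 genes 13 were higher and 20 lower, with a median of -0.03 against 0.00 over all genes. The tally turned to 18 higher and 15 lower without M off replicate 1 and to 17 and 16 without M on replicate 3.

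Markers of other cells also varied between M on and M off, with no call among them. Skeletal muscle markers summed to 74, 92.8 and 69 units in M on, against 293.4, 96.3 and 452.2 in M off, with M off replicates 1 and 3 high. By limma 3 of the 5 had an unadjusted p under 0.05, against 5.18% of probe sets, and their smallest adjusted p was 0.577. Some were dim, with Myh4 at 1.2 to 19.5 units over the 12 arrays. All 5 sinusoidal endothelium markers were on the lower side in M on, with a median log2 difference of -0.29 and none at an unadjusted p under 0.05 by limma. Their part in the C6 and C1qc values was not tested, and with each array left out in turn C6 stayed at -0.80 to -0.51 and C1qc at -0.68 to -0.46.

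Averaged over lines, on against off had a median of -0.06 with 11 genes higher and 22 lower. No complement gene was called (2 probe sets were, 0.00884%), none had all on arrays on one side of all off arrays (0.318% of probe sets did), and 2 had an unadjusted p under 0.05 by limma, against 5.84%. They were C1qc at -0.46 (standard error 0.16, adjusted p = 0.75) and C6 at -0.40 (standard error 0.17, adjusted p = 0.83). All 8 measured male-biased liver genes were also on the lower side in this comparison, and stellate cell and fibroblast markers summed to 722.8 to 1021.9 units in Z on, 1299.2 to 1542.4 in Z off, 766.4 to 1267.3 in M on and 1420.8 to 1532.2 in M off. Their part in the C6 and C1qc values was not tested.

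**Figure D5:**
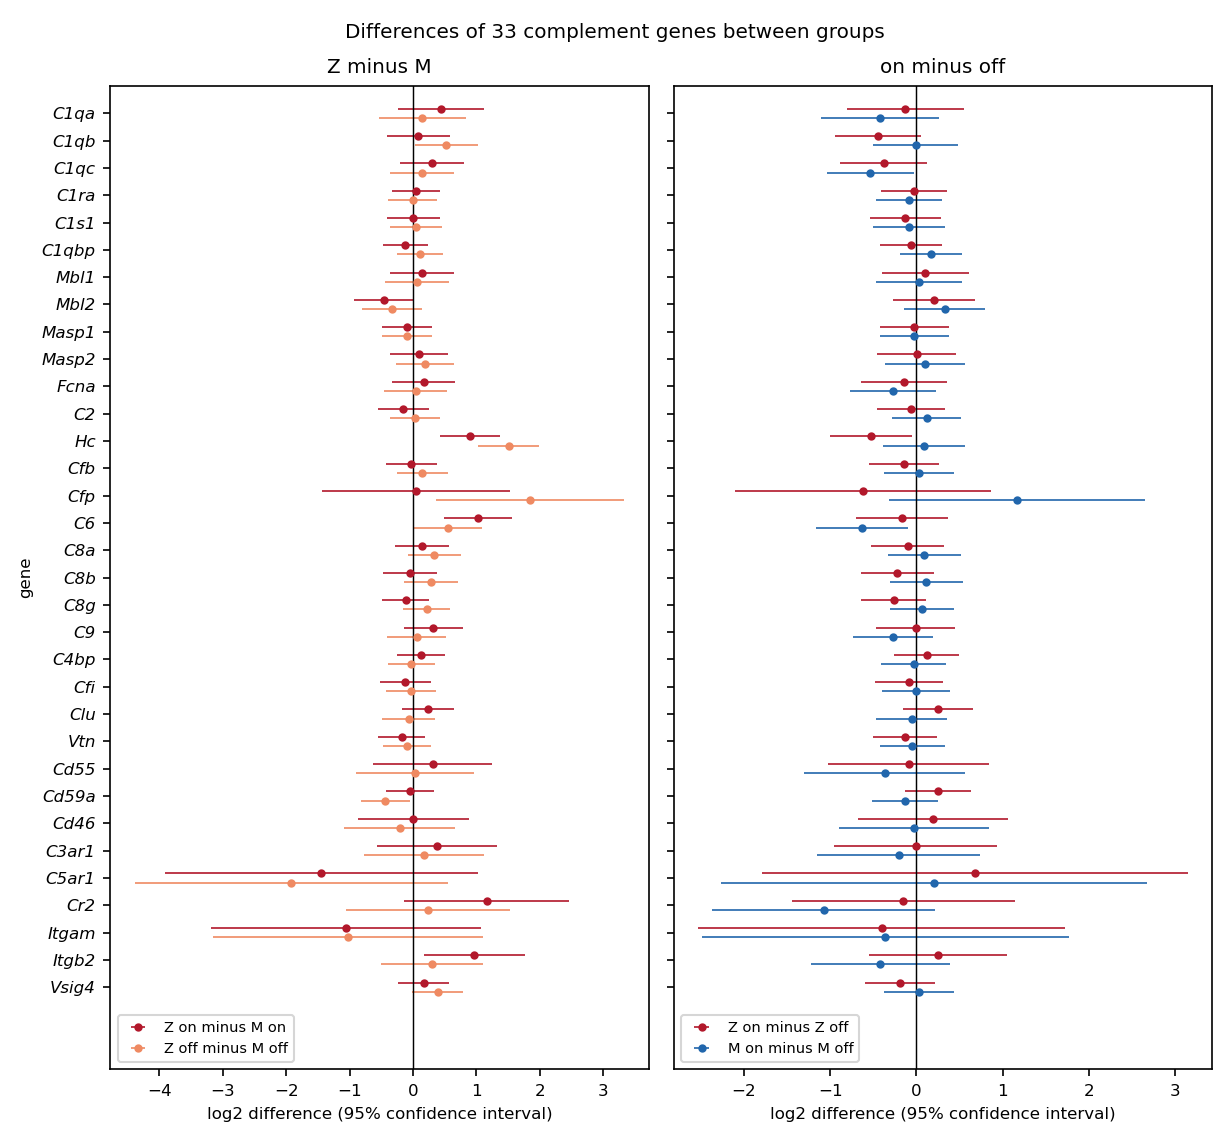
Log2 differences of 33 complement genes (rows) with 95% confidence intervals, at left between the lines (Z minus M, on and off shown separately) and at right between the states (on minus off, Z and M shown separately). The Hc intervals lie above 0 in both comparisons at left, and the widest intervals belong to dim genes such as C5ar1, Itgam and Cfp.

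Between Z on and M on, 21 of the 33 genes were higher and 12 lower, with a median of 0.08 against -0.01 over all genes. None was called (2 probe sets were, 0.00884%), and 3 had an unadjusted p under 0.05 by limma, all higher (C6, Hc and Itgb2), against 6.85% of probe sets. Only Hc and C6 had all Z on arrays above all M on arrays, against 6.07% of probe sets, and no complement gene had them all below, against 6.02%.

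The difference of the responses, Z on minus Z off less M on minus M off, tested whether a gene moved with expression in one line more than in the other. No complement gene passed and neither did any probe set (0%). None of the 33 had an unadjusted p under 0.05 by limma, against 5.18% of probe sets. The median was 0.00, with 17 genes above 0 and 16 below. The smallest p belonged to Hc, at -0.60 with a standard error of 0.30 (interval -1.28 to 0.07, unadjusted p = 0.0731, adjusted p = 0.933). Its response in the Z line, -0.52, was thus not shown to differ from that in the M line, 0.08. Cfp had the widest value, -1.79 with a standard error of 0.94, in dim signals.

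Other complement genes, from a list of 25 of which 12 were measured, gave no call in any of the 7 comparisons. Apcs, serum amyloid P, which binds C1q and is an acute phase protein of mice, averaged 3881.7 ± 1876.5 units in Z on and 1603 ± 257 units in Z off. Its Z on arrays lay above its Z off arrays, with a wide spread among the Z on arrays (log2 1.16, standard error 0.41, limma adjusted p = 0.706). The highest Apcs value, 5813.8 units, was on Z on replicate 3. Apcs read 3257.9, 2310.9 and 3238.6 units in M on and 1674.3, 3849.8 and 3472.7 in M off. Cpn1, the catalytic subunit of the carboxypeptidase that trims complement peptides, averaged 1312 ± 49 units in M on and 984 ± 26.3 units in M off (log2 0.42, adjusted p = 0.894). Cd93, an endothelial and myeloid surface protein once named a C1q receptor, averaged 23.5 ± 2.6 units in M on and 39.1 ± 8.8 units in M off (-0.72, adjusted p = 0.896). In Z off against M off, 11 of the 12 were lower in Z off, with a median of -0.22. Over all 12393 genes 5958 were lower, with a median of 0.02. The tally fell to 8 lower without Z off replicate 3 and to 9 without Z off replicate 2. None of the 12 had an unadjusted p under 0.05 by limma, and Cd55b was under 16 units on every array.

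The acute phase list, set beside these genes because Cfb and several other components belong to that response, had all 26 genes measured and no call in any comparison. In Z on against Z off 18 were higher and 8 lower, with a median of 0.14, but this rested on Z on replicate 3: without it 11 were higher and 15 lower, with a median of -0.12. The complement genes had 9 higher and 24 lower with that array, and 11 higher and 22 lower (median -0.11) without it. Apcs belongs to both this list and that of the other complement genes. The list's summed signal was 85426 to 123366 units in Z on, 97352.4 to 106932.7 in Z off, 89917.2 to 119672.5 in M on and 91365.5 to 111658.9 in M off.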

How the data were processed

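Liver RNA of 12 mice was extracted with TRIZOL, cleaned on a column, biotin-labelled and measured on 1-colour arrays, per the labels' protocols. The authors deposited 1 table of linear intensity values for 22690 probe sets. The submitters' processing notes name RMA, but the deposited intensities run from 0 to 37251.7, with equal trimmed means (2% taken from each end) and unequal medians, and RMA output is usually on the log2 scale, so how the values were made is not settled. Of all values 28.3% lay under 16, where log2 differences are uncertain.

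The 64 control probe sets were left out, 1 value of 0 was set to 0.1, and signals were converted to log2 with no further normalization. Sample titles gave the groups. The 12 arrays were fitted together, 1 mean for each group, with limma 3.58.1 (R 4.3.3, lmFit and eBayes, both directions), and 7 comparisons were adjusted by Benjamini and Hochberg over 22626 probe sets, with a call at an adjusted p under 0.05. Gene names came from the platform annotation (20380 probe sets with 1 symbol, 691 with several, 1555 with none), and no symbol changed on lookup in RefSeq GRCm38.p6, whose promoter windows were also used. The annotation used names no probe set for the human transgene, whose transcript was not analysed here.

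Values on every array are given for called members, for the 4 members of smallest p in each comparison and for a set of role examples; of the other complement genes, up to 2 a comparison could be named, and not all were. The members, lists and rules were chosen with earlier results of these data known. Alternatives were quantile normalization, median centring, 16 or 50 added before log2, 1 probe set per gene, a restriction to probe sets above the median level, robust variances with an intensity trend, the mean of a gene's probe sets, only the 2 groups compared, a replicate block, array weights and leaving out each array. List counts and medians with an array left out were added after the data had been seen. The fit was tested on simulated arrays with known log2 changes. Of probe sets changed by 1 in Z on, Z on against Z off called 1 of 49 above the median level. Below that level it called 0 of 51. Of those changed by 2, it called 41 of 62 and 3 of 38. With a change of 1 in both Z groups, the comparison between lines called 23 of 49 and 2 of 51. A missing call at that size thus does not show that a gene was unchanged. All samples and groups were used.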

Additional observations from a re-analysis of the deposited data

How the results depend on the processing

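Over 28 log2 differences of complement genes, each under up to 23 alternatives, 602 of 627 values kept their direction and their side of the threshold, 12 lost a call (all of them Hc between lines), 11 gained one and 2 changed direction; the cause was not tested. In the comparison of lines averaged over states, 1 complement gene (Hc) was called. With 50 added before log2, with an intensity trend and robust variances, and with only probe sets above the median level, 2 were (Hc and C6, with C6 at an adjusted p down to 0.0138). Leaving out 1 array gave 0 to 1 calls, with fewer samples in each fit. In Z off against M off the count was 0, and 1 (Hc) with quantile normalization, with 16 or 50 added, with the intensity trend, with probe sets above the median level, with 1 probe set per gene, with the mean of a gene's probe sets and with array weights, and 0 without any 1 array; the adjusted p of Hc ran from 0.000366 to 0.32. The other 5 comparisons had 0 calls among complement genes under every alternative run. With the mean of all probe sets, C1qb turned to 0.044 in Z on against Z off and to 0.067 in the difference of responses.

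Over the brighter probe sets same-numbered arrays showed little shared deviation (correlations -0.08 to 0.16, over 0.1 in 3 of 18 pairs), so the numbers were not taken as a pairing, although replicate 1 had the highest and replicate 3 the lowest hepatocyte marker sum in all 4 groups. With the replicate block 0 complement genes were called between lines (Hc 1.20, adjusted p = 0.0928).

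Calls over all probe sets ranged from 0 to 8 in Z on against Z off (3 as reported), 0 to 8 in M on against M off (0), 0 to 2 in the difference of responses (0), 0 to 22 in Z on against M on (2), 0 to 51 in Z off against M off (16), 7 to 110 between lines (20) and 0 to 17 between states (2). Dim signals limit Cfp, Cd55, Cr2, Itgam, Itgb2, C3ar1 and C5ar1.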
